A study of Drosophila melanogaster with 12 samples.

Results

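DNA transposons are mobile elements that move as DNA, most of them by a transposase that cuts the element out of one site and inserts it at another. The deposited tables of histone mark enrichment over fly repeats hold 21 rows whose type is DNA transposon, of 203 rows for H3K9me3 and 199 rows for H3K36me3. All 21 are present in both tables. Read from their names, they fall into 7 superfamilies: 9 rows are Tc1/mariner, 5 are Transib, 3 are P-related, and hAT, piggyBac, Helitron and Foldback have 1 row each. The placement of M4DM, counted here as Tc1/mariner, is unsure. The rows are not all independent of each other, because the Transib, PROTOP, S, TC1 and POGO rows are related elements that may share sequence.

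The treated cells were S2 cells, an established embryonic line of Drosophila melanogaster, given double-stranded RNA against KDM4A for 5 days. The control cells were S2 cells given double-stranded RNA against GFP for the same time. The labels list 2 libraries for each RNAi with H3K9me3 ChIP, with H3K36me3 ChIP and as input, 12 in all, and do not say whether these came from separate cultures. The tables hold 1 mean enrichment per treatment and mark, with no values per library, so the spread between libraries, the depth and the level of KDM4A itself were not analysed here. No difference below has a replicate check or a p-value, and "higher" and "lower" describe the deposited means only.

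H3K9me3 is the mark of heterochromatin that is bound by HP1a, and it covers many transposon copies near fly centromeres and on the fourth chromosome. H3K36me3 is laid down over the bodies of transcribed genes. KDM4A is a Jumonji-domain histone demethylase that binds HP1a in flies and removes methyl groups from H3K36. The comparison asked how its depletion altered both marks over repeats.

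In KDM4A RNAi cells, as in GFP RNAi cells, all 21 DNA transposons had H3K9me3 enrichment above 1. So did all 36 non-LTR retrotransposon rows in both treatments, and 84.2% of all 203 repeats in KDM4A RNAi cells and 84.7% in GFP RNAi cells. Their levels ran from 1.09 to 2.77 with a median of 2.30 in KDM4A RNAi cells, and from 1.33 to 2.79 with a median of 2.09 in GFP RNAi cells. This is a narrow band in the middle of the table. The interquartile range of the DNA transposons in GFP RNAi cells was 1.90 to 2.41, whereas it was 2.35 to 3.59 over the 36 non-LTR retrotransposon rows and 1.45 to 3.08 over the 122 LTR retrotransposon rows. None of the 21 was among the 50 rows with the most H3K9me3 in either treatment. Among non-LTR retrotransposons 19 of 36 rows were in that group in KDM4A RNAi cells and 18 of 36 in GFP RNAi cells.

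H3K36me3 gave another picture. The median level of the DNA transposons was 1.23 in KDM4A RNAi cells and 1.29 in GFP RNAi cells. The medians of non-LTR retrotransposons were 0.899 in KDM4A RNAi cells and 0.892 in GFP RNAi cells, and those of LTR retrotransposons were 0.842 in KDM4A RNAi cells and 0.912 in GFP RNAi cells. In GFP RNAi cells 16 of 21 DNA transposons (76.2%) were above 1, against 14 of 36 non-LTR rows (38.9%) and 46 of 118 LTR rows (39.0%). In KDM4A RNAi cells the numbers above 1 were 13 of 21, 15 of 36 and 44 of 118. Over all 199 repeats 38.2% were above 1 in KDM4A RNAi cells and 40.2% in GFP RNAi cells. DNA transposons made up 9 of the 49 rows with the most H3K36me3 in KDM4A RNAi cells, which is 42.9% of the type. In GFP RNAi cells they made up 10 of 49, which is 47.6%. These 49 of 199 rows held 19.4% of non-LTR and 24.6% of LTR rows in KDM4A RNAi cells. In GFP RNAi cells the shares were 25.0% and 22.0%. Rows of 1 type are not replicates, so the difference between types was not tested.

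**Figure D1:**
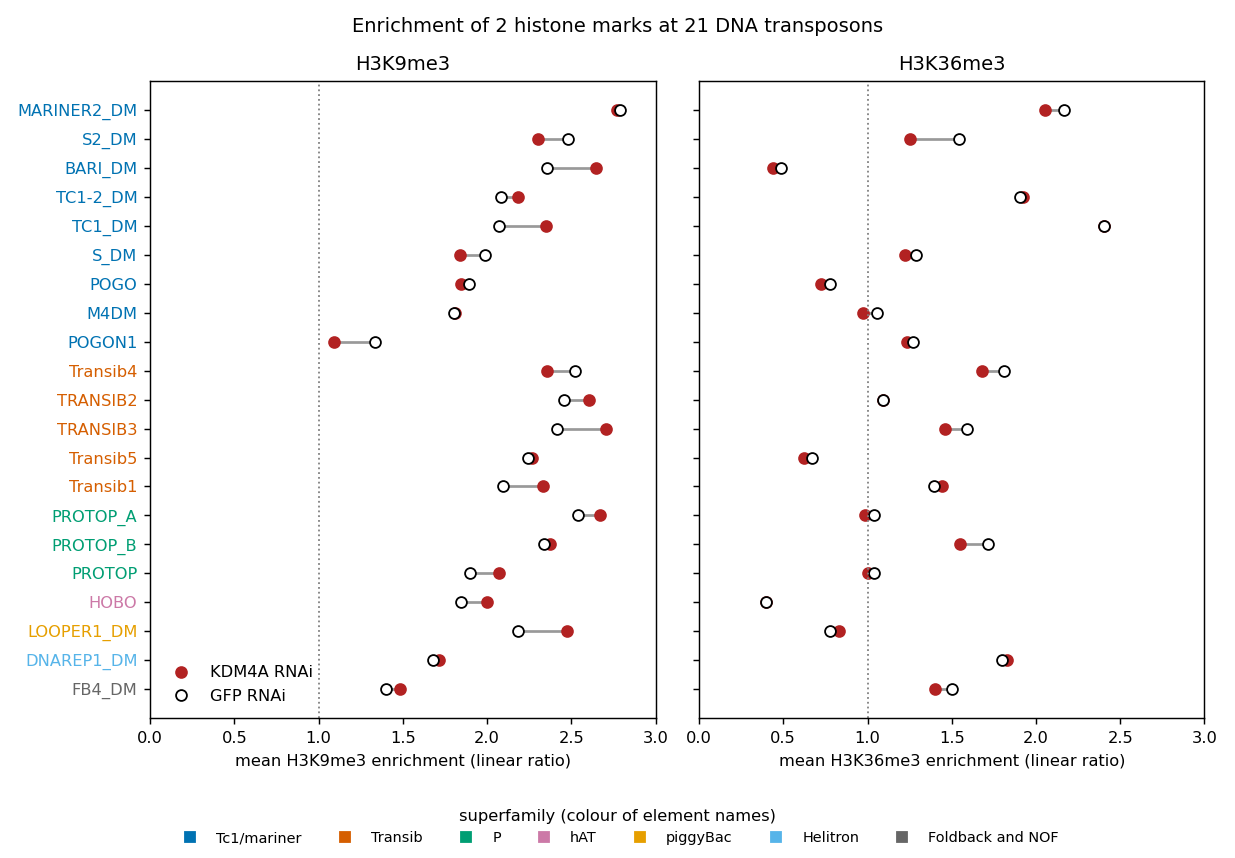
Mean enrichment (linear ratio, horizontal axis from 0) of H3K9me3 and H3K36me3 at each of the 21 DNA transposons, with KDM4A RNAi as filled red points and GFP RNAi as open points, and names coloured by superfamily. All H3K9me3 points lie above 1 (dotted line), whereas H3K36me3 ran from 0.400 at HOBO to 2.40 at TC1_DM.

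The Tc1/mariner superfamily, named for a nematode and a fly element, held the highest and the lowest H3K9me3 level of the 21 rows and the highest H3K36me3 level. MARINER2_DM had the most H3K9me3 of the DNA transposons in both treatments, at 2.77 in KDM4A RNAi cells and 2.79 in GFP RNAi cells. It was also second for H3K36me3, at 2.05 in KDM4A RNAi cells and 2.17 in GFP RNAi cells. TC1_DM was first for H3K36me3, at 2.40 in both treatments, which was rank 7 of 199 repeats in KDM4A RNAi cells and rank 6 in GFP RNAi cells. Its relative TC1-2_DM came next after MARINER2_DM, with 1.93 in KDM4A RNAi cells and 1.91 in GFP RNAi cells. The other end of the superfamily was BARI_DM, a Tc1-like element known for a tandem cluster in fly heterochromatin, with H3K36me3 of 0.437 in KDM4A RNAi cells and 0.488 in GFP RNAi cells.

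Between treatments the Tc1/mariner rows did not move as a group in H3K9me3. TC1_DM was at 2.35 in KDM4A RNAi cells and 2.07 in GFP RNAi cells, a log2 ratio of 0.18 that was the highest of any DNA transposon. BARI_DM was at 2.65 in KDM4A RNAi cells and 2.35 in GFP RNAi cells (log2 ratio 0.17). TC1-2_DM was at 2.19 in KDM4A RNAi cells and 2.08 in GFP RNAi cells (log2 ratio 0.07). Thus TC1_DM and TC1-2_DM, which had nearly the same H3K9me3 level in GFP RNAi cells, were both above it in KDM4A RNAi cells by different amounts.

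The S elements, Tc1-like transposons whose name is unrelated to that of the S2 cell line, lay on the other side for H3K9me3. S_DM was at 1.84 in KDM4A RNAi cells and 1.99 in GFP RNAi cells, and S2_DM at 2.30 in KDM4A RNAi cells and 2.48 in GFP RNAi cells. Their log2 ratios were both -0.11. In H3K36me3 the size of the difference was less alike. S2_DM had the largest relative decrease of any DNA transposon, with 1.25 in KDM4A RNAi cells and 1.54 in GFP RNAi cells (log2 ratio -0.30), whereas S_DM was at 1.23 in KDM4A RNAi cells and 1.29 in GFP RNAi cells (log2 ratio -0.07, which centring of the columns on their median over all repeats turned to 0.02).

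Pogo, a Tc1/mariner-related element, and POGON1, a non-autonomous derivative that relies on transposase made elsewhere, were also lower in both marks as deposited, although centring turned POGON1 to a H3K36me3 log2 ratio of 0.05. POGON1 had the least H3K9me3 of the 21 rows and the largest H3K9me3 decrease, with 1.09 in KDM4A RNAi cells and 1.33 in GFP RNAi cells (log2 ratio -0.28). POGO itself was at 1.85 in KDM4A RNAi cells and 1.90 in GFP RNAi cells. For H3K36me3 the order of the pair was turned round. POGON1 had the higher level, at 1.23 in KDM4A RNAi cells and 1.27 in GFP RNAi cells, and POGO the lower, at 0.724 in KDM4A RNAi cells and 0.778 in GFP RNAi cells. M4DM was nearly equal in H3K9me3, at 1.81 in both treatments, and had H3K36me3 of 0.974 in KDM4A RNAi cells and 1.06 in GFP RNAi cells.

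Over the 9 Tc1/mariner rows, H3K9me3 was higher at 4 and lower at 5, with log2 ratios from -0.28 to 0.18 and a median of -0.01. H3K36me3 was lower at 8 and higher at 1, with log2 ratios from -0.30 to 0.01 and a median of -0.08. The shares over all repeats were 64.5% higher against 35.5% lower for H3K9me3, and 33.7% higher against 65.3% lower for H3K36me3. Centring each column on its median over all repeats removes the shift between the column medians. It turned the H3K36me3 split to 5 higher and 4 lower. Over all repeats it left 62.3% higher in H3K36me3, with a median log2 ratio of 0.035. In H3K9me3 the centred split was 3 higher and 6 lower.

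Transib elements encode a transposase related to RAG1, the recombinase that assembles vertebrate antigen receptor genes. The 5 Transib rows had similar H3K9me3, between 2.27 and 2.71 in KDM4A RNAi cells and between 2.09 and 2.52 in GFP RNAi cells. Of these, 4 were higher in KDM4A RNAi cells as deposited, and 3 after centring, which turned Transib5. Over all repeats 64.5% were higher as deposited and 55.7% after centring. TRANSIB3 was at 2.71 in KDM4A RNAi cells and 2.41 in GFP RNAi cells (log2 ratio 0.17), and Transib1 at 2.33 in KDM4A RNAi cells and 2.09 in GFP RNAi cells (log2 ratio 0.15). TRANSIB2 and Transib5 differed less, with TRANSIB2 at 2.61 in KDM4A RNAi cells and 2.46 in GFP RNAi cells, and Transib5 at 2.27 in KDM4A RNAi cells and 2.24 in GFP RNAi cells. Transib4 was the exception, with 2.36 in KDM4A RNAi cells and 2.52 in GFP RNAi cells (log2 ratio -0.10).

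Although close in H3K9me3, the Transib rows were spread in H3K36me3. Transib4 had the most, at 1.68 in KDM4A RNAi cells and 1.81 in GFP RNAi cells, followed by TRANSIB3 at 1.46 in KDM4A RNAi cells and 1.59 in GFP RNAi cells. Transib1 was at 1.44 in KDM4A RNAi cells and 1.39 in GFP RNAi cells, and TRANSIB2 at 1.09 in both. Transib5 stood below the others, with 0.622 in KDM4A RNAi cells and 0.672 in GFP RNAi cells. The highest of the 5 was 2.69 times the lowest in GFP RNAi cells, against 1.20 times for H3K9me3. Between treatments H3K36me3 was higher at 2 rows and lower at 3, with a median log2 ratio of -0.11. TRANSIB2, among the higher rows, differed by only 0.002. Over all repeats 33.7% were higher and 65.3% lower. After centring the median of the Transib rows was -0.02.

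PROTOP is a relative of the P element, the transposon behind hybrid dysgenesis and the basis of fly transformation vectors, and PROTOP_A and PROTOP_B are its named variants. All 3 rows had higher H3K9me3 and lower H3K36me3 in KDM4A RNAi cells as deposited, as did 41.1% of the 185 repeats with the same name in both tables. For H3K9me3, PROTOP was at 2.07 in KDM4A RNAi cells and 1.90 in GFP RNAi cells, PROTOP_A at 2.67 in KDM4A RNAi cells and 2.54 in GFP RNAi cells, and PROTOP_B at 2.38 in KDM4A RNAi cells and 2.34 in GFP RNAi cells. For H3K36me3, PROTOP was at 1.00 in KDM4A RNAi cells and 1.04 in GFP RNAi cells, and PROTOP_A at 0.986 in KDM4A RNAi cells and 1.04 in GFP RNAi cells. PROTOP_B, with more of the mark, was at 1.55 in KDM4A RNAi cells and 1.72 in GFP RNAi cells (log2 ratio -0.15). After centring on all repeats the pattern of opposite signs held at none of the 3: PROTOP and PROTOP_A were then higher in both marks and PROTOP_B lower in both. Centring on transposon rows instead kept it at PROTOP (log2 ratios 0.08 for H3K9me3 and -0.05 for H3K36me3) and PROTOP_A (0.03 and -0.07). PROTOP_B was again lower in both (-0.02 and -0.15).

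Single rows stood for the other superfamilies. HOBO, a hAT element present in some fly strains and absent from others, had the least H3K36me3 of all 21 and the same value in both treatments, 0.400. Its H3K9me3 was within the range of the other rows, at 2.00 in KDM4A RNAi cells and 1.85 in GFP RNAi cells. LOOPER1_DM, a piggyBac-type element, had the highest H3K36me3 log2 ratio of the 21 rows, with 0.829 in KDM4A RNAi cells and 0.780 in GFP RNAi cells (log2 ratio 0.09). It also had the second largest H3K9me3 increase, with 2.47 in KDM4A RNAi cells and 2.18 in GFP RNAi cells (log2 ratio 0.18).

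DNAREP1_DM and FB4_DM paired relatively low H3K9me3 with H3K36me3 well above 1. DNAREP1_DM is a very numerous short element derived from Helitrons, the DNA transposons that replicate by a rolling circle. Its H3K9me3 was 1.72 in KDM4A RNAi cells and 1.68 in GFP RNAi cells, and its H3K36me3 was 1.83 in KDM4A RNAi cells and 1.80 in GFP RNAi cells. FB4_DM is a Foldback element, a class with long inverted repeats at its ends. Its H3K9me3 was 1.48 in KDM4A RNAi cells and 1.40 in GFP RNAi cells, and its H3K36me3 was 1.40 in KDM4A RNAi cells and 1.499 in GFP RNAi cells. With POGON1 these 2 had the 3 lowest H3K9me3 levels of the DNA transposons in GFP RNAi cells. The 3 lowest for H3K36me3 were HOBO, BARI_DM and Transib5.

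**Figure D2:**
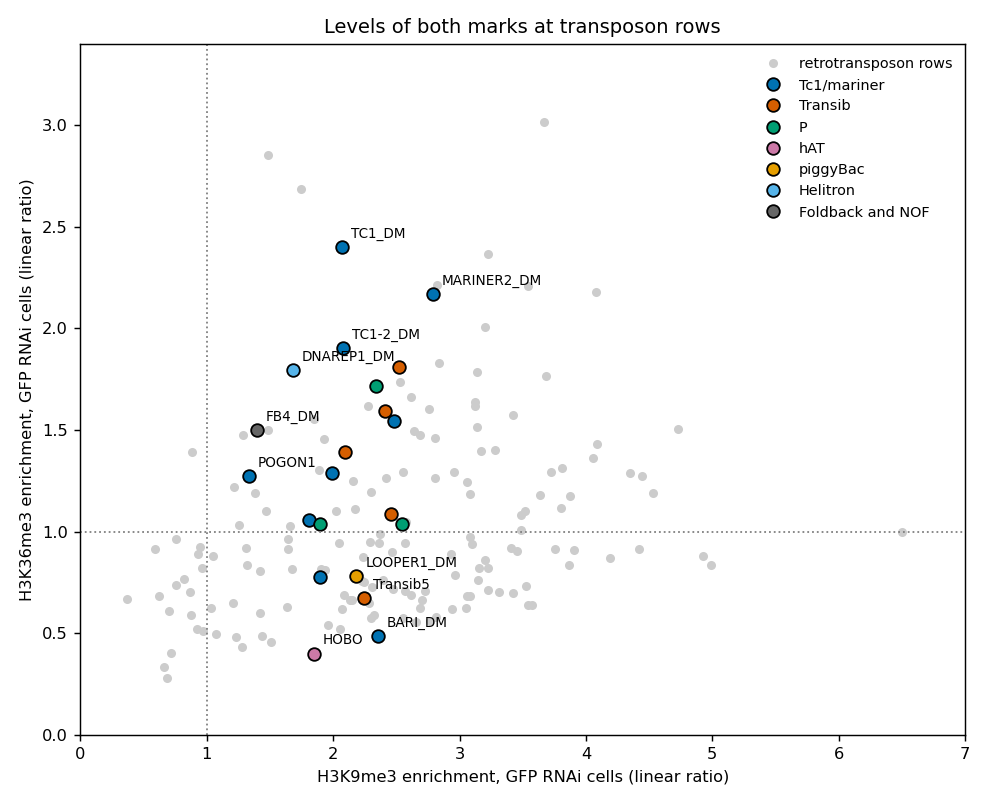
H3K36me3 against H3K9me3 enrichment in GFP RNAi cells (both linear ratios), with DNA transposons coloured by superfamily and retrotransposon rows present in both tables in grey. The DNA transposons lie between 1.33 and 2.79 on the H3K9me3 axis and between 0.400 and 2.40 on the H3K36me3 axis.

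Over all 21 rows H3K9me3 was higher in KDM4A RNAi cells at 15 (71.4%) and lower at 6, as deposited. The background was 64.5% of all 203 repeats higher and 35.5% lower, so the share among DNA transposons was near that of the table. The largest relative increase was 1.13 times. None of the 21 rows differed by at least 1.5 times, where 0.493% of all repeats were higher and 2.46% lower by that much. By at least 1.1 times, 5 of 21 were higher (TC1_DM, LOOPER1_DM, BARI_DM, TRANSIB3 and Transib1) and 1 was lower (POGON1), where 21.7% of all repeats were higher and 16.3% lower by that much. The median log2 ratio was 0.07 for the 21 rows, with an interquartile range from -0.01 to 0.13, against 0.04 for all repeats. Centring each column on its median gave 12 higher and 9 lower (57.1% higher), where 55.7% of all repeats were higher and 44.3% lower.

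The 6 rows lower in H3K9me3 were POGON1, S_DM, S2_DM, Transib4, POGO and MARINER2_DM, and 5 of them are Tc1/mariner. These 5 include the related rows S_DM and S2_DM, and POGO with its derivative POGON1. Of the 12 rows of other superfamilies 11 were higher and only Transib4 was lower, where 64.5% of all repeats were higher. These 12 include the related Transib and PROTOP rows. After centring on all repeats 9 of these 12 were higher, DNAREP1_DM by only 0.0007 on the log2 scale, where 55.7% of all repeats were higher. Centring on transposon rows left Transib4 (-0.14), Transib5 (-0.03), PROTOP_B (-0.02) and DNAREP1_DM (-0.01) lower. With that centring 49.8% of all repeats were higher. The superfamilies were compared with their values in view, and rows are not replicates, so this contrast has no test.

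H3K36me3 was lower in KDM4A RNAi cells at 15 of 21 DNA transposons (71.4%), higher at 5 and equal at 1, as deposited. The background was 65.3% of all 199 repeats lower and 33.7% higher. By at least 1.1 times, 3 were lower (S2_DM, BARI_DM and PROTOP_B) and 0 higher, where 20.6% of all repeats were lower and 12.1% higher by that much. None differed by at least 1.5 times, where 2.51% of all repeats were higher and 0% lower. The 5 higher rows were LOOPER1_DM, Transib1, DNAREP1_DM, TC1-2_DM and TRANSIB2, with log2 ratios of at most 0.09. The median log2 ratio was -0.08 for the 21 rows, with an interquartile range from -0.11 to 0.00, against -0.05 for all repeats. Centring on all repeats turned the split to 12 higher and 9 lower and the median to 0.01. With that centring 62.3% of all repeats were higher and 37.7% lower. Centring on transposon rows gave 7 higher and 14 lower, with a median of -0.07. Subtracting the median log2 ratio of all repeats gave 9 higher and 12 lower, with a median of -0.02. Of these scalings, only centring on all repeats reversed the direction of the H3K36me3 difference.

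**Figure D3:**
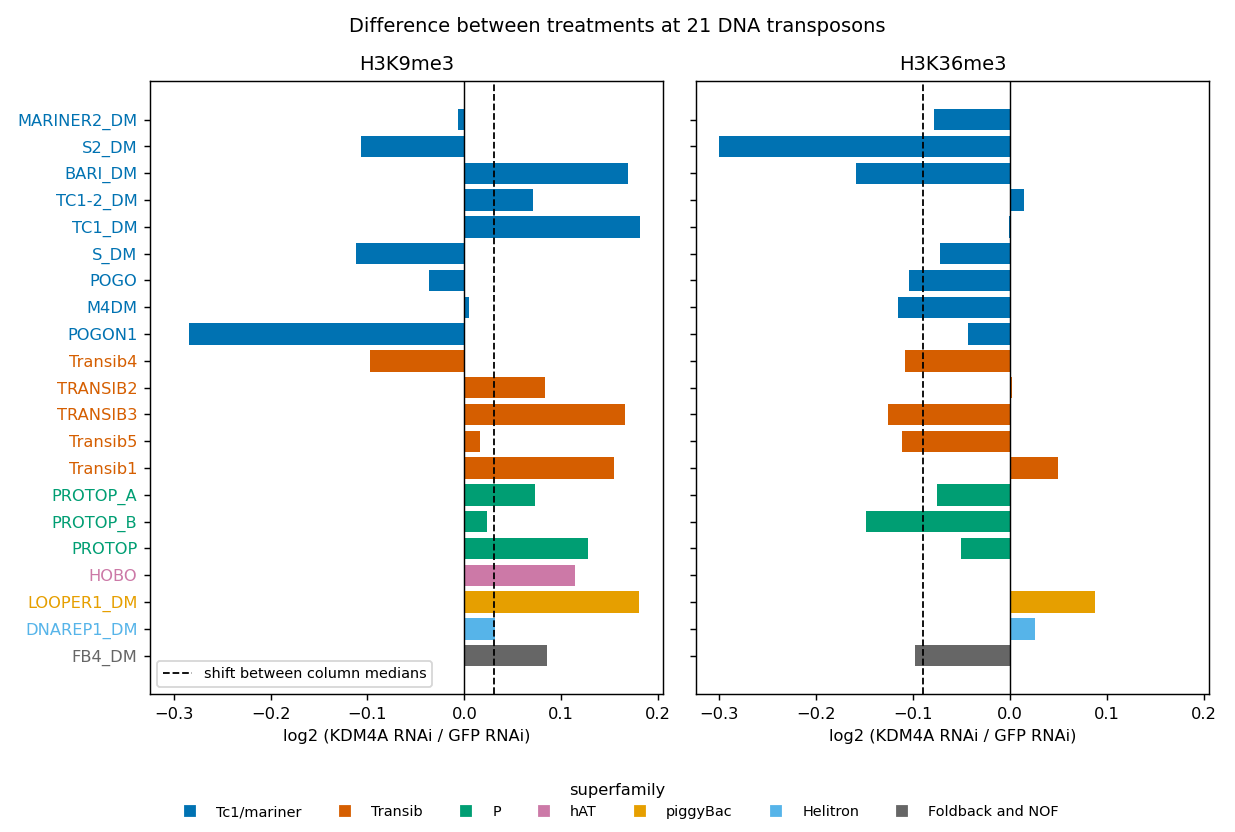
Log2 ratio of KDM4A RNAi over GFP RNAi for each of the 21 DNA transposons in both marks, with bars coloured by superfamily and a dashed line at the shift between the column medians over all repeats (0.03 for H3K9me3 and -0.09 for H3K36me3). Bars for H3K9me3 point right at 15 rows, of which 12 end beyond the dashed line, and for H3K36me3 point left at 15 rows, of which 9 end beyond it.

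The differences at DNA transposons were smaller than the most extreme ones elsewhere. No member differed by more than 0.28 on the log2 scale in H3K9me3, while 22 of the 182 other repeats did, among them 10 of 122 LTR rows and 3 of 36 non-LTR rows. In H3K36me3 no member differed by more than 0.30, while 15 of the 178 other repeats did, among them 6 of 118 LTR rows and 3 of 36 non-LTR rows. Both limits are the largest differences of the members themselves, so no member could pass them. A larger set of rows has more extremes, so these counts describe the types and do not set them apart. The medians of the 3 transposon types were 0.07, 0.07 and 0.05 in H3K9me3 for DNA, non-LTR and LTR rows, and -0.08, -0.05 and -0.06 in H3K36me3.

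**Figure D4:**
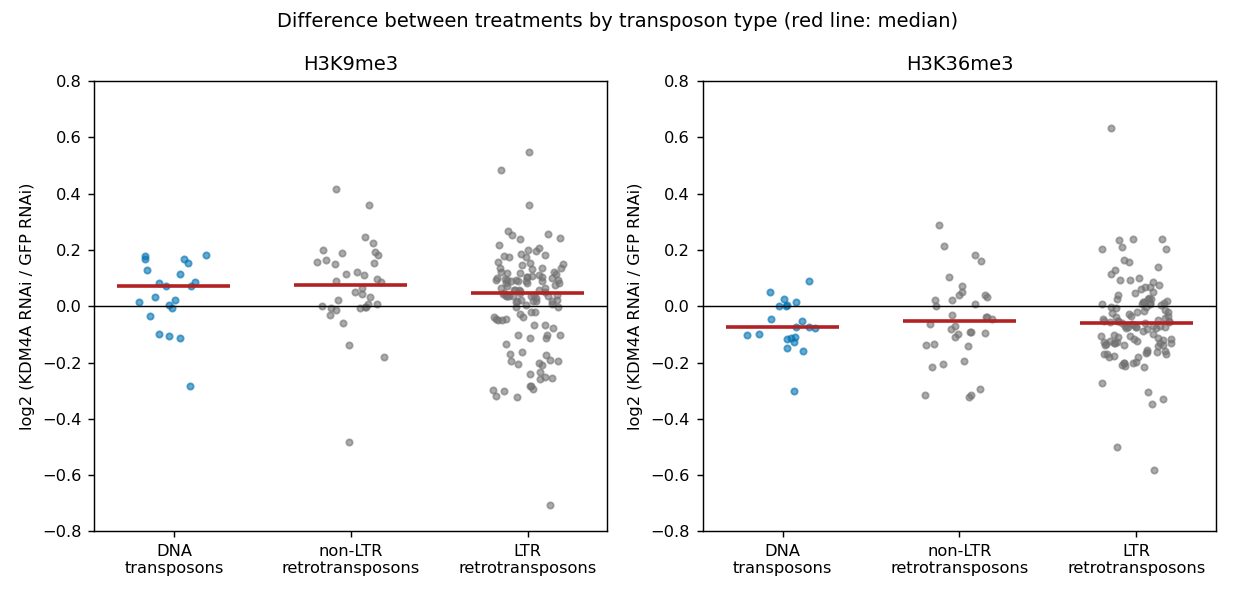
Log2 ratio of KDM4A RNAi over GFP RNAi (vertical axis) for each row of the 3 transposon types, with the median of each type as a red line. The DNA transposons ran from -0.28 to 0.18 in H3K9me3 and from -0.30 to 0.09 in H3K36me3, inside the range of the LTR retrotransposons.

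Retrotransposon rows of similar H3K9me3 level gave a second comparison. Between mean levels of 1.21 and 2.78, the range of the 21 members, there were 65 retrotransposon rows, of which 37 (56.9%) were higher in KDM4A RNAi cells, with a median log2 ratio of 0.02. This is below the 71.4% and the median of 0.07 of the DNA transposons. After centring on all repeats it was 29 of 65 (44.6%), against 57.1% of the DNA transposons. In H3K36me3 the range of the members, 0.400 to 2.40, held 148 of the 154 retrotransposon rows, so it did not match them on level. Their median level in GFP RNAi cells was 0.907, against 1.29 for the members. Of these 148 rows 101 were lower and 46 higher, with a median log2 ratio of -0.06. Centring on all repeats turned this to 90 higher, 58 lower and a median of 0.03. Within the 21 rows Spearman's rho between the mean H3K9me3 level and the log2 ratio was 0.22 and Pearson's r was 0.39, as a description across rows that share the same libraries.

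Set side by side, the marks differed in opposite directions at 9 of the 21 DNA transposons as deposited, with more H3K9me3 and less H3K36me3 in KDM4A RNAi cells. The background was 41.1% of the 185 rows with the same name in both tables, and the 9 are 42.9% of the 21. They were BARI_DM, TC1_DM, M4DM, TRANSIB3, Transib5, the 3 PROTOP rows and FB4_DM. The H3K36me3 difference of TC1_DM among them was 0.001, the last decimal deposited, and the H3K9me3 difference of M4DM was 0.006. A further 5 were higher in both marks, 6 were lower in both, none had less H3K9me3 with more H3K36me3, and HOBO was higher in H3K9me3 and equal in H3K36me3. BARI_DM was the only row that passed 1.1 times in both marks, with log2 ratios of 0.17 for H3K9me3 and -0.16 for H3K36me3. After centring on all repeats, 3 rows had more H3K9me3 and less H3K36me3 (BARI_DM, TRANSIB3 and FB4_DM). A further 9 were higher in both, 6 lower in both and 3 the reverse. The labels list no separate inputs for the antibodies, and whether both tables used the same inputs is not stated, so no correlation between the marks is given.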

How the data were processed

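Per the labels, cells were fixed for 10 min in 1% paraformaldehyde and chromatin was sonicated for 30 cycles before ChIP with 5 µg of antibody. The authors deposited 1 table per antibody with a linear enrichment ratio per repeat, which is a mean for each RNAi treatment per the file headers. The submitters' processing notes list Bowtie and MACS2 with no version or role. Not given in the sources used here are the build, the repeat library, how multi-mapping reads were counted, the denominator, the depth scaling and which libraries entered each mean. Reads shared by related elements could make their rows alike. The tables give no coordinates, so no positions or sequences are shown.

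Rows were taken by their type, and superfamilies by a fixed rule on names. M4DM was placed in Tc1/mariner by this rule, although no superfamily is annotated for it in the sources used here. Log2 ratios of KDM4A RNAi over GFP RNAi were computed over the whole tables with pandas 2.3.3 in Python 3.11.15, with no pseudocount, and the counting was tested on simulated data. Without values per library the planned limma test could not be run. The members, lists and the minimum of 1.1 times were chosen with earlier results of these data known. By the naming rule all 21 members are named. Alternatives were 2 ways of centring, a pseudocount of 1, minimum changes, a filter on level, means, sums, 1 value per family name and leaving out the farthest row. The 13 family names count POGO and POGON1 apart.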

Additional observations from a re-analysis of the deposited data

How the results depend on the processing

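No paired analysis was possible because each treatment has only a mean, and for the same reason no library could be left out. Leaving out the Tc1/mariner rows and subtracting the median log2 ratio of all repeats were chosen after seeing the data. Changes over 1.5 times are given for splits, medians and superfamilies, since there is no spread between libraries to set them against. For single rows they are counted. The cause was not tested unless a setting merely shifts or removes rows. For H3K9me3 the split of 15 higher and 6 lower became 11 and 10 with columns centred on transposon rows, 11 and 10 after subtracting the median log2 ratio, 5 and 1 at 1.1 times, 0 and 0 at 1.5 times, 4 and 3 at or above the median level, 9 and 4 with 1 value per family, and 11 and 1 without Tc1/mariner. Its median log2 ratio (0.071) became 0.040 with columns centred on all repeats, 0.027 centred on transposon rows, 0.040 as a mean and 0.028 after subtracting the median log2 ratio. Centring on all repeats brought the medians of P to 0.042, of Transib to 0.053 and of Tc1/mariner to -0.037, and as a mean Tc1/mariner was -0.013. For H3K36me3 the split of 5 higher and 15 lower reversed to 12 and 9 with columns centred on all repeats. It was 9 and 12 after subtracting the median log2 ratio, 0 and 3 at 1.1 times, 0 and 0 at 1.5 times, 3 and 9 with 1 value per family, and 4 and 7 without Tc1/mariner. Its median (-0.076) reversed to 0.014 when centred on all repeats, and was -0.040 with a pseudocount of 1 and -0.021 after subtracting the median log2 ratio. For superfamilies, centring on all repeats reversed P (0.014) and Tc1/mariner (0.012) and brought Transib to -0.019. A pseudocount of 1 gave -0.038, -0.044 and -0.044 for P, Tc1/mariner and Transib, and the mean of Transib was -0.059. Single rows were rerun with a pseudocount of 1 and with centring on all repeats, and of these only the centring changed directions. For H3K9me3 it turned PROTOP_B (-0.0068), M4DM (-0.026) and Transib5 (-0.015). For H3K36me3 it turned PROTOP (0.038), PROTOP_A (0.014), MARINER2_DM (0.012), POGON1 (0.046), S_DM (0.017) and TC1_DM (0.089). Other single log2 ratios changed by over 1.5 times without reversing. With a pseudocount of 1 this held at 8 of 21 rows in H3K9me3 and 18 of 21 in H3K36me3. With centring on all repeats it held at 7 rows in H3K9me3 and 14 in H3K36me3, counting HOBO, which moved from 0. Centring on transposon rows, left out of these counts, turned DNAREP1_DM (-0.013), PROTOP_B (-0.020), M4DM (-0.039) and Transib5 (-0.028) in H3K9me3. In H3K36me3 that centring turned TC1_DM (0.001) and moved HOBO from 0 to 0.002. The 9 rows with more H3K9me3 and less H3K36me3 became 3 after centring on all repeats and 1 at 1.1 times. Median levels in GFP RNAi cells moved by less than 1.5 times under every alternative run. The depth behind every value is unknown.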
